A study of Saccharomyces cerevisiae with 8 samples.

Results

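Stable unannotated transcripts (SUTs) are non-coding RNAs of budding yeast that can be seen in wild-type cells. The 318 SUTs described here are those of the 847 SUTs in the annotation used by the study that overlap no coding transcript on the opposite strand of the same chromosome. The annotation holds 7272 transcripts in all, with 5171 coding transcripts and 529 SUTs that do lie antisense to one of them. The members were chosen by position alone, and their reads played no part in the choice.

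SUTs are made by RNA polymerase II and are usually capped and polyadenylated. They differ from cryptic unstable transcripts (CUTs), which the nuclear exosome removes so quickly that they are hard to see while its Rrp6 subunit is present. Many SUTs and CUTs start from the nucleosome-free region of a coding gene and run away from it on the other strand, others start upstream on the same strand and run towards the promoter, and a few of those are known to repress the gene they run into.

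RNA came from 2 cultures of a diploid F1 hybrid between S96, a laboratory strain, and SK1, a wild isolate, and from 2 pools made of its haploid spores, replicates A and B of each, all grown in YPD, a rich glucose medium. The spore pools were grown overnight after selection for a single mating type, so a pool is a mixture of recombinant genotypes, and the hybrid carries both mating types and both alleles in each nucleus. Genomic DNA of the same 4 samples gave the SK1 frequency at each single-nucleotide polymorphism (SNP), which selection had moved to between 25.2% and 91.1% at the members in pool A. The ratios of both pools below are divided by the smoothed frequencies of pool A, and equal shares were taken for the hybrids. RNA libraries were strand specific, and a read pair was counted for an allele only if it matched a single parental genome, so members without a difference between the strains give few or no counts.

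Between 45297678 and 52600018 allele-specific read pairs were counted per library on annotated transcripts, of which the members held 94309 in hybrid A, 84176 in hybrid B, 125070 in pool A and 101513 in pool B, or 0.175% to 0.240%. Pairs outside the annotation were 35.8% and 36.4% of allele-specific pairs in hybrid A and pool A and 28.4% and 26.8% in hybrid B and pool B. The labels held for cell type in the marker genes checked. The 6 genes specific to a cells, the pheromone receptor gene STE2 among them, and the 6 haploid-specific genes all had higher levels in the pools. Of these, 5 and 6 passed the test, whereas none of 4 alpha-specific genes passed it. The planned markers ASG7 for a cells and FUS3, FUS1, FAR1, STE18, RME1 and HO for haploid cells are not among the genes checked.

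The members were shorter than coding transcripts, with lengths from 33 to 4913 bp and a median of 569 bp against 1521 bp. Antisense SUTs had a median of 881 bp and CUTs that are not antisense one of 289 bp. The members held a median of 7.79 listed SNPs per kb against 4.82 for coding transcripts and 5.61 for antisense SUTs. No SNP was listed inside 42 members, and 27 of these could not be tested.

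Most members lay close to a coding gene. The nearest coding transcript was divergent, starting on the other strand and running away, for 125 members (39.3%), with a median of 219 bp between the 5′ ends. A further 62 members abutted a coding transcript on their own strand and shared 1 base with it, 54 of them on its upstream side and 8 on its downstream side. Another 64 lay upstream of the nearest coding transcript and 25 downstream of it on the same strand, and 42 were convergent with it. When the nearest transcript was taken from the 5′ end of the member instead, 201 members were divergent.

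The sequences between the 5′ ends of 5 divergent pairs are shown because the member of each pair had an allele difference past the test, described below, while the sequence is shared with the promoter region of a coding gene. They are letters of the S288c genome R64, read in the direction of the SUT from the first base outside the coding transcript to the last base before the SUT, and capitals mark the positions of SNPs listed between S96 and SK1. The coding partners are NAT1, a subunit of the main N-terminal acetyltransferase, PPT1, a protein phosphatase, PBS2, the kinase that activates Hog1 in osmotic stress, RAD5, a DNA helicase of damage tolerance, and REV1, a translesion DNA polymerase.
SUT048 and NAT1, chrIV:381478-381592, plus strand: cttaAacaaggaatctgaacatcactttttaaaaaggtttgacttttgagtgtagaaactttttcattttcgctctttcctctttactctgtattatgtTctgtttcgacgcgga
SUT129 and PPT1, chrVII:738280-738426, plus strand: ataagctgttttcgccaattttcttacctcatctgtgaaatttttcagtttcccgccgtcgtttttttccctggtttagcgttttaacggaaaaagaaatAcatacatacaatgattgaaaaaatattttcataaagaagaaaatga
SUT205 and PBS2, chrX:180333-180487, plus strand: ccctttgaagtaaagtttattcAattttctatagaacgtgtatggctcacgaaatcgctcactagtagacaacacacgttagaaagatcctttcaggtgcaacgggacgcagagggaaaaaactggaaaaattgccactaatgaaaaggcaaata
SUT687 and RAD5, chrXII:204726-204920, minus strand: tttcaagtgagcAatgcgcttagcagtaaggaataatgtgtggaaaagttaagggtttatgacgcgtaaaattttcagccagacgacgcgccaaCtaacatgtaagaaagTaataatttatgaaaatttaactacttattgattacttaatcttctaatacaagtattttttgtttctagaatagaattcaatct
SUT796 and REV1, chrXV:981472-981650, minus strand: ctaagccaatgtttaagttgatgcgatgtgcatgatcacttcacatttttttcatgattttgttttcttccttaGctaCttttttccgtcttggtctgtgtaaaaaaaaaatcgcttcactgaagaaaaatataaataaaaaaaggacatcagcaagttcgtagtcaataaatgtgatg

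These 5 gaps were 115, 147, 155, 195 and 179 bp long and held 2, 1, 1, 3 and 2 listed SNPs. Other divergent members past the test had gaps no longer than these that are not shown. The gaps of SUT370 with ORT1, SUT441 with LSM2 and SUT722 with TRM12 were 51, 91 and 147 bp long and held 0 listed SNPs. That of SUT520 with ECM32 was 195 bp long and held 1. Of the 5 shown, the gap of SUT796 and REV1 held the TATA box letters TATAAA on either strand, as did that of SUT520 and ECM32. In the 200 bp upstream of each transcript, TATAAA was found on either strand for 25.6% of 297 members, 34.7% of coding transcripts and 34.1% of all transcripts, and TTACCCG, the core of the site of the general regulatory factor Reb1, for 4.38%, 9.42% and 8.36%. Antisense SUTs had TATAAA in 32.2% and TTACCCG in 4.89%, and CUTs that are not antisense in 31.25% and 5.59%. The low share of TTACCCG was thus common to these non-coding classes. The median GC content of these windows was 36.0% for the members and 35.5% for coding transcripts. TCTT, bound as UCUU by the termination factor Nab3, was counted in the first 300 bases of the transcript. It was found 0.586 times per 100 bases in the members and 0.710 times in antisense SUTs. CUTs that are not antisense had it 1.24 times and coding transcripts 0.508 times. GTAA, bound as GUAA by its partner Nrd1, was found 0.486, 0.452, 0.691 and 0.386 times per 100 bases in the same order. The other Nrd1 motif, GTAG, was found 0.315, 0.351, 0.396 and 0.226 times. These counts leave out chromosome XI, where 29.7% of the coding transcripts of the annotation contained their own R64 coding sequence, against 86.7% to 97.5% on the other chromosomes, so that the counted windows of the 21 members there may be shifted.

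Levels were low. Levels are given as CPM per kb, the allele-specific read pairs per kb for every 1000000 pairs counted in a library. The median level of 317 members with rows for both alleles was 3.50 in hybrid A, 3.07 in hybrid B, 4.85 in pool A and 3.96 in pool B. Over the 4 libraries the median member had 4.12, with quartiles of 1.12 and 10.7, against 9.66 for antisense SUTs, 1.38 for CUTs that are not antisense and 34.8 for coding transcripts. Antisense CUTs had 8.16, so that the members stood below both antisense classes and above CUTs that are not antisense, and this was found in each of the 4 libraries. The scale depends on the SNPs that make pairs allele specific. Divided by the SNPs per kb, the medians were 0.601 for members, 1.73 for antisense SUTs, 0.280 for CUTs that are not antisense and 7.66 for coding transcripts, in the same order. These last medians leave out transcripts without a listed SNP. Left out were 41 of 317 members, 41 of 526 antisense SUTs, 69 of 317 of these CUTs and 180 of 5168 coding transcripts.

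**Figure D1:**
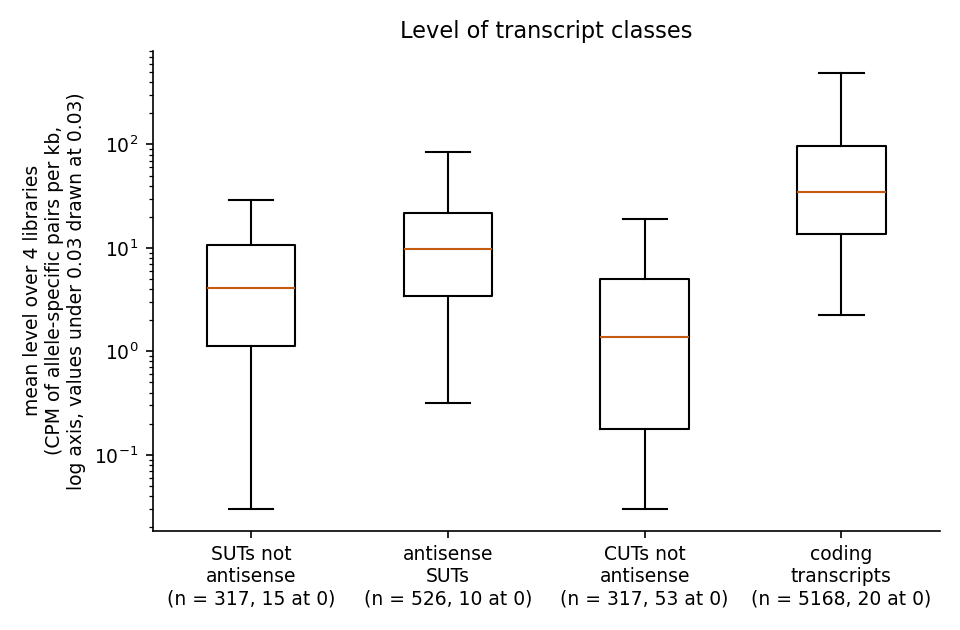
Mean level over the 4 libraries in CPM per kb on a log axis, with values under 0.03 drawn at 0.03 (15 members at 0), with medians as lines, quartiles as boxes and whiskers from the 5th to the 95th percentile. The median was 4.12 for the SUTs that are not antisense, 9.66 for antisense SUTs, 1.38 for CUTs that are not antisense and 34.8 for coding transcripts.

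The member with the highest level per kb was SUT721, a transcript of 241 bp on chromosome XIII that lies 151 bp upstream of GIS4 on the same strand. Its level was 209 CPM per kb in hybrid A, 198 in hybrid B, 166 in pool A and 236 in pool B. The values of the pools lay on both sides of those of the hybrids, and both alleles gave similar counts, 1149 SK1 and 1129 S96 pairs in hybrid A and 1502 and 1495 in pool B.

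SUT625, which abuts the upstream end of NCA3, a gene of the SUN family, had 177, 156, 88.9 and 173 CPM per kb in hybrid A, hybrid B, pool A and pool B. Pool A was the lowest of the 4, and the groups overlapped. SUT205, divergent to PBS2, had 116, 74.4, 112 and 74.6 in the same order, so that both A libraries were higher than both B libraries. SUT147, upstream of the uncharacterised gene YHL044W, had 87.3, 60.6, 60.1 and 56.6, and SUT796, divergent to REV1, had 57.0, 48.2, 72.2 and 65.1. Hybrid A was high for SUT147, and both pools were above both hybrids for SUT796, but the change of SUT796 did not pass the test (log2 change of 0.29 ± 0.31 (SE), edgeR adjusted p = 0.91).

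The members were as a rule less abundant than the coding gene beside them, and 43 of 317 had a higher mean level per kb than their nearest coding transcript. The median level was 5.86 for divergent members with 28.0 for their neighbours, 3.60 for members upstream on the same strand with 34.4, 7.37 for members downstream with 23.2 and 3.94 for convergent members with 33.0. Members that abutted the upstream side of a coding transcript had a median of 2.50, the lowest of these arrangements, beside 39.8 for their neighbours.

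Of the 318 members, 242 (76.1%) had pairs of both alleles with at least 10 corrected counts on average and were tested. Of the others, 15 had no pair in any library, 41 had pairs of both alleles but too few, 14 had pairs of S96 only, 5 had pairs of SK1 only and 1 had no row for both alleles. The tested members had a median of 121 pairs per allele and library, and the coding transcripts tested had 1570. The spread between replicates was wide as well. The log2 ratio of SK1 to S96 differed between hybrids A and B by a median of 0.92 in members and 0.33 in coding transcripts, and between the pools by 1.04 and 0.34. These medians cover 192 of the tested members and 4993 coding transcripts in the hybrids, and 210 and 5024 in the pools.

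A cis effect is a difference between the alleles inside the hybrid, where both meet the same regulators. It was called for 38 of the 242 tested members (15.7%) at a false discovery rate below 0.2 with a change of more than 1.5-fold, against 11.6% of all 6705 transcripts tested. The S96 allele was the higher for 24 and the SK1 allele for 14, where the shares over all transcripts were 7.02% and 4.53%. Among other classes, a cis effect was called for 14.8% of 155 CUTs that are not antisense and 10.1% of 486 antisense SUTs. It was called for 5.19% of antisense CUTs, 11.5% of coding transcripts and 19.9% of other annotated transcripts. The median absolute log2 ratio of the members was 1.05 against 0.33 over all transcripts. The median standard error of the fit was 1.18 against 0.30. CUTs that are not antisense had 2.07 and 2.12 for these medians, and antisense SUTs 0.62 and 0.66. Ratios of 34 of the 38 pointed in one direction in all 4 libraries. Of the 38, 7 had no listed SNP inside, 5 of these with S96 higher. At a false discovery rate below 0.05 the count was 16 of the 242 members, against 442 of 6705 transcripts (6.59%). The share of members was thus near the background at this rate. A fit without hybrid A or without hybrid B leaves a single hybrid. In each of these fits many of the 38 lost their call and other members gained one. Without hybrid A the share of members called was below that over all transcripts, and without hybrid B it was above it.

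The clearest excess of SK1 was that of SUT722, a transcript of 601 bp divergent to TRM12, which encodes an enzyme of wybutosine synthesis in tRNA. It had 418 SK1 and 3 S96 pairs in hybrid A, 841 and 22 in hybrid B, 1213 and 12 in pool A, and 486 and 32 in pool B. Every library was strongly one-sided, and the fitted log2 ratio was 5.93 ± 0.77 (SE) in the hybrids (edgeR adjusted p = 5.3e-05). TRM12 itself had 1570 SK1 and 2109 S96 pairs in hybrid A and 2186 and 2128 in hybrid B, with a log2 ratio of -0.19 (edgeR adjusted p = 0.74). SUT721, the abundant transcript with even alleles, lies 511 bp further along the same strand between TRM12 and GIS4. The transcripts of TRM12 and GIS4 in the annotation do not contain their R64 coding sequence in full, so that the windows counted for SUT721 and SUT722 may be shifted too, which was not tested.

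SUT531, divergent to IRC7, a gene for a cysteine-cleaving lyase, had 830 SK1 and 205 S96 pairs in hybrid A, 1254 and 201 in hybrid B, 1057 and 234 in pool A, and 837 and 202 in pool B. The 4 libraries were close to each other, and the log2 ratio was 2.33 ± 0.39 (SE) in the hybrids and 2.09 ± 0.39 in the pools (edgeR adjusted p = 8.0e-04 and 0.0021). SUT129, divergent to PPT1, had 571 SK1 and 45 S96 pairs in hybrid A, 188 and 51 in hybrid B, 524 and 166 in pool A, and 268 and 40 in pool B. SK1 was higher in all 4 (log2 ratio of 2.77 ± 0.78 (SE), edgeR adjusted p = 0.036), but without hybrid A the ratio was 1.88 and its adjusted p 0.39.

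The remaining members with the largest SK1 excess rested on fewer pairs or on uneven libraries. SUT619, which abuts the upstream end of YJL185C, had 438 SK1 and 2 S96 pairs in hybrid A, 159 and 3 in hybrid B, and 110 and 1 in pool B, but 146 and 66 in pool A. SK1 was the higher allele in each library (log2 ratio of 6.66 ± 1.59 (SE) in the hybrids, edgeR adjusted p = 0.013), and pool A stood apart from the rest. SUT413, convergent with the SUMO protease gene ULP1, had 49 SK1 and 4 S96 pairs in hybrid A, 241 and 6 in hybrid B, 74 and 0 in pool A, and 102 and 2 in pool B. SUT114, upstream of SRM1, the exchange factor of the Ran GTPase, had 402 and 150, 94 and 4, 297 and 43, and 176 and 74 in the same order. The log2 ratios of these last members in the hybrids were 4.47 ± 1.79 (SE) for SUT413 and 2.77 ± 1.08 for SUT114 (edgeR adjusted p = 0.16 and 0.15). SUT413 lost its call without either hybrid (adjusted p = 0.20 without A and 0.65 without B), and SUT114 without hybrid B (log2 ratio of 1.42, adjusted p = 0.63, and a ratio of 4.52 without hybrid A).

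Among called members with S96 higher, SUT048 had the most read pairs, 11367 over the 4 libraries. It is the longest member, with 4913 bp and 53 listed SNPs and a mean level of 11.9 CPM per kb, and starts 115 bp from NAT1 on the other strand. It had 37 SK1 and 4106 S96 pairs in hybrid A, 57 and 2999 in hybrid B, 1 and 2872 in pool A, and 42 and 1253 in pool B. The S96 allele held nearly all pairs in every library (log2 ratio of -6.23 ± 0.67 (SE) in the hybrids and -6.27 ± 0.72 in the pools, edgeR adjusted p = 6.2e-06 and 1.5e-05). NAT1, transcribed from the other side of the gap shown above, had 3479 SK1 and 3526 S96 pairs in hybrid A and 5280 and 4665 in hybrid B (log2 ratio of 0.08, edgeR adjusted p = 0.85).

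SUT796 had a neighbour with an effect in the same direction. It had 156 SK1 and 1189 S96 pairs in hybrid A, 7 and 1201 in hybrid B, 127 and 1836 in pool A, and 203 and 1580 in pool B. S96 was higher in all 4, and hybrid B had the lowest SK1 count (log2 ratio of -4.66 ± 0.73 (SE), edgeR adjusted p = 3.6e-04). The ratio was -7.40 without hybrid A and -2.93 without hybrid B, and called each time. REV1 had 523 SK1 and 1941 S96 pairs in hybrid A and 308 and 1310 in hybrid B (log2 ratio of -1.99, edgeR adjusted p = 5.2e-05). SUT593, convergent with the NADPH dehydrogenase gene OYE2 at a distance of 1307 bp, had 15 SK1 and 305 S96 pairs in hybrid A, 0 and 141 in hybrid B, 61 and 244 in pool A, and 2 and 388 in pool B (log2 ratio of -5.66 ± 1.52 (SE) in the hybrids, edgeR adjusted p = 0.028, and -10.29 without hybrid A). Pool A gave it the largest SK1 share, as it gave SUT619 the largest S96 share.

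At the right end of chromosome XVI, members gave few SK1 pairs. Of the members, 5 lie at the right end of chromosome XVI, in chrXVI:927659-937955 of R64, beyond the last listed SNP of that chromosome at position 925094, and together they had 5417 S96 and 57 SK1 pairs over the 4 libraries. SUT430, which is 2409 bp long and lies 1459 bp from the oligopeptide transporter gene OPT2, had 557 S96 pairs in hybrid A, 403 in hybrid B, 740 in pool A and 429 in pool B, with 1 SK1 pair each in hybrid A and pool A. Over the hybrids this is 960 S96 pairs to 1, a ratio with an exact 95% binomial interval from 172 to 37957 that covers counting error only, since read pairs copied by PCR are not independent molecules. SUT847, convergent with the drug transporter gene SGE1, had 298, 102, 633 and 351 S96 pairs in the order hybrid A, hybrid B, pool A and pool B, and a single SK1 pair, in hybrid B.

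SUT431, convergent with the arsenic resistance regulator ARR1, had 44, 105, 28 and 62 S96 pairs in hybrid A, hybrid B, pool A and pool B and 1 SK1 pair, in pool A. With 0 SK1 pairs in the hybrids, its S96 level was at least 49.7-fold higher there, taking 3 pairs over the group as the most that a count of 0 allows. It lost its call without either hybrid (edgeR adjusted p = 0.22 without A and 0.46 without B, and 0.11 with both). SUT429, the nearest of the 5 to OPT2, was less extreme, with 3 SK1 and 69 S96 pairs in hybrid A, 16 and 153 in hybrid B, 1 and 467 in pool A, and 33 and 239 in pool B (log2 ratio of -3.79 in the hybrids, and a call lost without hybrid A at an edgeR adjusted p of 0.24). The coding neighbours did not all share the direction, since ARR1 and SGE1 had log2 ratios of -4.85 and -7.51 and OPT2 one of 1.65 in the hybrids (edgeR adjusted p = 0.0035, 0.0016 and 0.0052). On chromosome V, SUT500, 3803 bp from RMD6, had 160, 332, 81 and 209 S96 pairs and 2 SK1 pairs, both in hybrid B. Without that library SUT500 and SUT847 held no SK1 pair and were not tested. Whether these members have a full copy in SK1 cannot be told from the counts and was not tested.

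**Figure D2:**
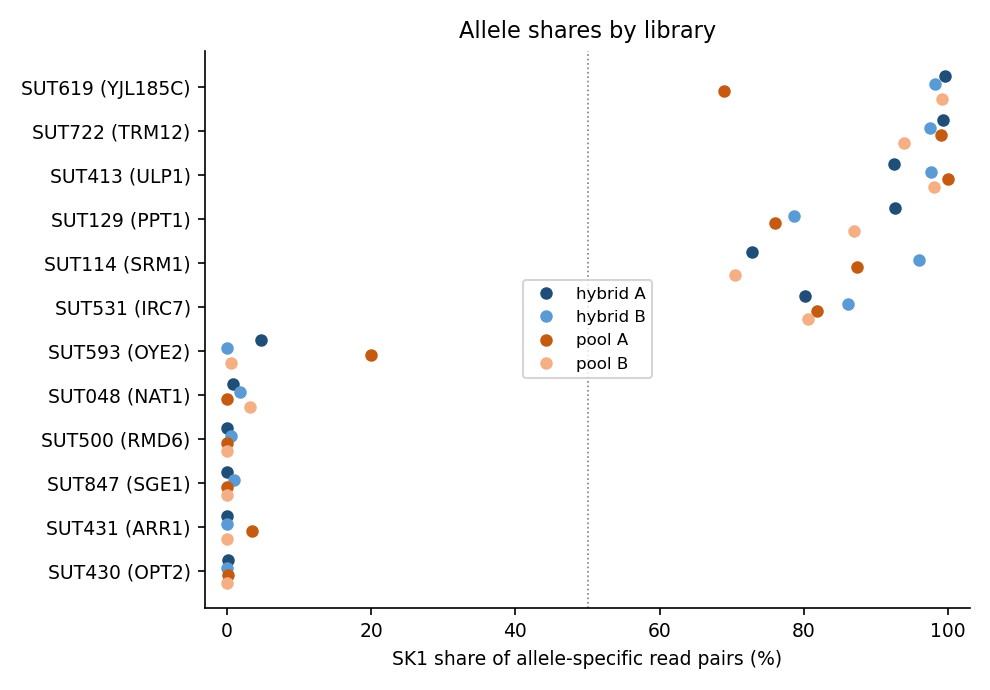
Share of SK1 in the allele-specific read pairs of each library, in percent, for the 6 members with the largest called cis effects in each direction, with the nearest coding gene in brackets. Only members with at least 20 pairs per allele column on average and all 4 ratios in one direction could enter, so that the points of a member lie on one side of the dotted line at 50% by choice, and pool A stands apart for SUT619 (146 SK1 and 66 S96 pairs) and SUT593 (61 and 244).

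SUT205 and SUT147, both among the 5 members of highest level, and SUT687 had smaller effects past the test. SUT205 had 1293 SK1 and 352 S96 pairs in hybrid A, 814 and 307 in hybrid B, 1156 and 678 in pool A, and 728 and 501 in pool B. SK1 was higher in each library, with a log2 ratio of 1.64 ± 0.35 (SE) in the hybrids and 0.68 ± 0.34 in the pools (edgeR adjusted p = 0.0055 and 0.29), and the difference between these ratios did not pass the test (-0.96 on the log2 scale, edgeR adjusted p = 0.87). PBS2 had even alleles (log2 ratio of 0.05, edgeR adjusted p = 0.94). SUT687, divergent to RAD5, had 600 SK1 and 283 S96 pairs in hybrid A, 645 and 319 in hybrid B, 1147 and 291 in pool A, and 1094 and 668 in pool B. SK1 was again higher in each library (log2 ratio of 1.05 ± 0.40 (SE) in the hybrids, edgeR adjusted p = 0.13), but the call was lost without hybrid A (adjusted p = 0.33), without hybrid B (0.32) and with the DNA of each pool used for itself (0.28). SUT147 had a log2 ratio of -0.71 ± 0.28 (SE, edgeR adjusted p = 0.15, and 0.67 without hybrid A).

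The numbers of called cis effects by arrangement are a description, and their difference was not tested. They were found in 21 of 98 tested divergent members, 7 of 32 convergent ones and 8 of 46 upstream on the same strand, but in 1 of 22 downstream on the same strand, 1 of 39 that abut the upstream side of a coding transcript and 0 of 5 that abut the downstream side. The nearest coding transcript of all 38 called members was tested too, and 8 of these (21.1%) had a cis effect of their own, against 11.5% of all coding transcripts tested. The direction was that of the member for 4 of the 8, namely SUT796 with REV1, SUT431 with ARR1, SUT847 with SGE1 and SUT147 with YHL044W. It was opposite for SUT429 and SUT430, which share the neighbour OPT2, for SUT732 with JLP2 and for SUT743 with the CCR4-NOT component gene CAF120. SUT429, SUT430, SUT431 and SUT847 lie together at the right end of chromosome XVI, so the 8 pairs are not 8 separate loci. Whether those members have a full copy in SK1 was not tested, and the share of 21.1% leans on that chromosome end. The call of SUT732 was lost without hybrid B (edgeR adjusted p = 0.77) and that of SUT743 without either hybrid (0.39 without A and 0.33 without B). Across 239 pairs, Spearman's rho between the log2 ratios of a member and its nearest coding transcript was 0.03, a description over pairs that share libraries and, in part, neighbours.

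**Figure D3:**
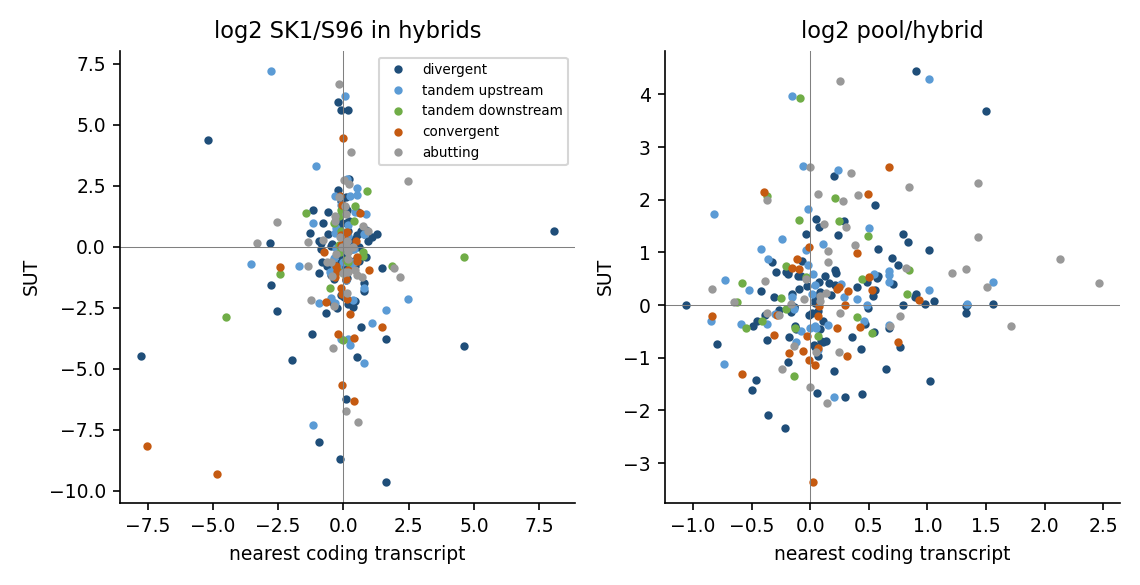
Fitted log2 values of each tested SUT against those of its nearest coding transcript, for the allele ratio in the hybrids on the left and for the change from hybrid to pool on the right, coloured by arrangement (239 pairs). Points on the left spread along the vertical axis while most neighbours lie near 0, with a rho of 0.03, and rho on the right was 0.19.

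In the pools, where each haploid cell carries one allele, the ratio of the alleles passed the test for 29 of the 242 members, against 10.3% of all transcripts tested. S96 was higher for 18 and SK1 for 11, where the shares over all transcripts were 6.34% and 3.94%. At a false discovery rate below 0.05 the count was 11 of the 242, against 390 of 6705 transcripts (5.82%), a lower share in members. Of the 38 members called in the hybrids, 19 were also called in the pools, all in the same direction, and 10 were called in the pools only. Without pool A 11 of 237 members were called in the pools (4.64%), when the share over all transcripts was 6.25%. The difference between the pool and hybrid ratios, the local trans effect, measures what changes when the alleles no longer share a nucleus. It was called for 0 of the 242 members by edgeR and for 0 by DESeq2, and for 0.149% of all transcripts by edgeR (0.0895% at a rate below 0.05). The median standard error of this difference was 1.66 on the log2 scale in members and 0.42 over all transcripts. With so wide an error and so low a background share, a count of 0 cannot tell whether members have local trans effects. An unadjusted edgeR p under 0.05 was found for 8 of the 242 members, against 387 of 6705 transcripts (5.77%), a lower share in members. Leaving out hybrid A gave a call for SUT796 (log2 difference of 4.16, adjusted p = 0.0016) and leaving out pool B one for SUT048 (-4.76, adjusted p = 0.064), so each of these rested on a single library of a group.

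**Figure D4:**
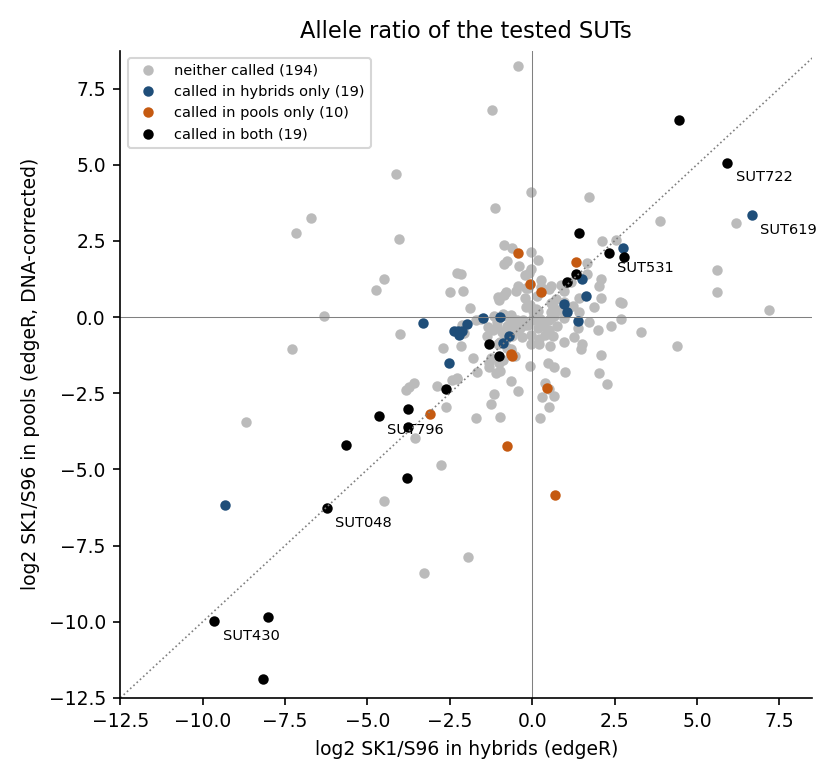
Log2 ratio of SK1 to S96 in the pools, corrected for the allele frequency of the DNA, against that in the hybrids for the 242 tested SUTs, coloured by where the ratio was called. The 19 members called in both lie on the same side of 0 on both axes, and the dotted line marks equal ratios.

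From diploid hybrid to haploid pool, 3 members changed in the sum of both alleles, all with higher levels in the pools. This is 1.24% of the 242 tested, against 1.13% of all transcripts, 1.07% higher in the pools and 0.0597% lower, so the share of members was near the background. At a rate below 0.05 the count was 0, against 0.522%. Fewer cells with a transcript and less RNA per cell cannot be told apart in such bulk samples. The median log2 change of the members was 0.16 against 0.01 over all transcripts. It was 0.14 in antisense SUTs, close to that of the members, and -0.05 in CUTs of either class. Normalised counts, which are pairs of both alleles divided by the size factor of the library, did not overlap and were higher in the pools for 61 members (25.2%) and higher in the hybrids for 33 (13.6%), where the share over all transcripts was 18.3% in each direction.

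SUT307 had the largest of these changes. It is 393 bp long and abuts the downstream end of the small gene YMR122W-A on chromosome XIII. Its normalised counts were 272 in hybrid A, 156 in hybrid B, 697 in pool A and 1430 in pool B. Both pools were higher than both hybrids, by 2.31 ± 0.52 (SE) on the log2 scale (edgeR adjusted p = 0.097) and pool B was the higher of the pools. YMR122W-A rose as well, from 22859 and 21385 in the hybrids to 58363 and 61034 in the pools (log2 change of 1.43, edgeR adjusted p = 0.01). Reads that run past the end of that gene could be counted for SUT307, and this was not tested.

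SUT305 lies 611 bp from YKU80, a Ku subunit of end joining, on the other strand. It had 378 normalised counts in hybrid A, 325 in hybrid B, 1075 in pool A and 1118 in pool B. The replicates were close within each group and the groups lay far apart (log2 change of 1.64 ± 0.41 (SE), edgeR adjusted p = 0.16). Its alleles were even in the hybrids, with 149 SK1 and 186 S96 pairs in A and 162 and 145 in B, and both alleles rose in the pools, to 603 and 662 in A and 729 and 405 in B. YKU80 had 885 and 1470 in the hybrids and 938 and 1502 in the pools (log2 change of 0.05, edgeR adjusted p = 0.99).

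SUT421 lies 1071 bp downstream of the acid trehalase gene ATH1 on the same strand. Its normalised counts were 858 in hybrid A, 662 in hybrid B, 2108 in pool A and 1688 in pool B, with no overlap (log2 change of 1.32 ± 0.34 (SE), edgeR adjusted p = 0.19). ATH1 had 1056 and 878 in the hybrids and 1304 and 1420 in the pools (log2 change of 0.49, edgeR adjusted p = 0.81). SUT421 also had a cis effect, with 511 SK1 and 249 S96 pairs in hybrid A and 426 and 200 in hybrid B (log2 ratio of 1.06 ± 0.35 (SE), edgeR adjusted p = 0.080, lost without either hybrid at 0.22 and 0.29). In the pools SK1 and S96 had 1375 and 1106 pairs in A and 865 and 848 in B, and the corrected log2 ratio was 0.15.

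The calls of these 3 members depended on which hybrids entered the fit, while their changes stayed positive. Log2 changes without hybrid A and without hybrid B were 2.77 and 1.98 for SUT307, and 1.75 and 1.54 for SUT305. For SUT421 they were 1.52 and 1.15. Without hybrid B none of the 242 members was called and the adjusted p of SUT307, SUT305 and SUT421 was 0.36, 0.89 and 1.0, and without hybrid A 5 members were called and SUT305 and SUT421 were lost (adjusted p = 0.49 and 0.46). The share over all transcripts was 0.627% and 0.896% in these fits. Without pool A 7 of 237 members were called (2.95%) and without pool B 27 of 239 (11.3%), the 3 among them each time, but the share over all transcripts rose too, to 11.7% and 13.1%. With all 4 libraries no member was called lower in the pools, whereas 2 were without pool A and 10 without pool B. Among members with lower fitted levels there the lowest p with all libraries was that of SUT048, with normalised counts of 4677 and 3233 in the hybrids and 2441 and 1276 in the pools (log2 change of -1.09 ± 0.34 (SE), edgeR adjusted p = 0.34). SUT048 was called lower by DESeq2 (adjusted p = 0.11) and by edgeR with the replicate block (adjusted p = 0.083), without pool A (3.8e-06) and without pool B (0.076).

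**Figure D5:**
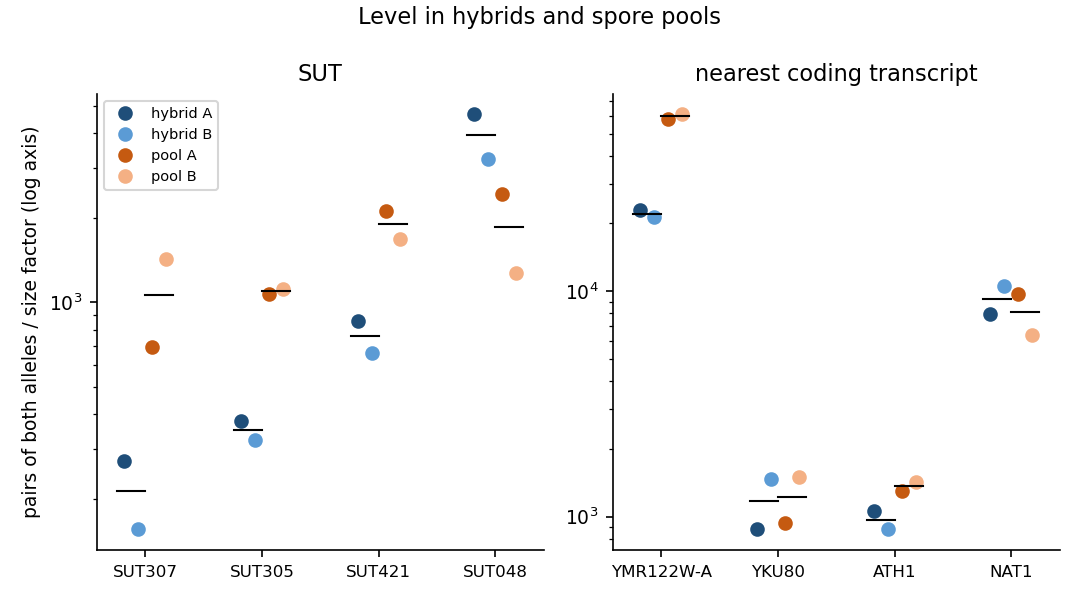
Pairs of both alleles divided by the size factor, on a log axis, in each library for 4 SUTs (left) and their nearest coding transcripts (right), with the mean of each group as a line. SUT307, SUT305 and SUT421 are higher in both pools than in both hybrids, as is YMR122W-A, and SUT048 is lower without passing the test in the fit with all 4 libraries.

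The best known member could not be measured. SUT643 is IRT1, which starts upstream of IME1, the master activator of meiosis, and whose transcription across the IME1 promoter is known to repress IME1 in haploid cells. It holds no listed SNP, and its counts were 1 pair in hybrid A, 2 in hybrid B, 1 in pool A and 2 in pool B. A level difference was not detectable at this depth, and IME1, 127 bp away, was itself untested. No other member lay next to a gene of the lists of a-specific, alpha-specific, haploid-specific or meiosis genes.

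Members beside genes of these further lists were counted by list, and together 4 of 29 tested had a cis effect (13.8%), against the 11.6% of all transcripts. Of 7 tested members next to ribosomal protein genes none had a cis effect, nor had any of 5 next to cell wall genes, 3 next to cyclin genes, 2 next to hexose transporter genes or 1 next to the phosphatase gene PHO5. For amino acid and peptide transporter genes, 2 of 6 had one, SUT429 and SUT430 at OPT2. SUT532, near the alcohol dehydrogenase gene ADH4, was the one of 4 tested next to glycolysis genes, with 94 SK1 and 383 S96 pairs in hybrid A and 58 and 276 in hybrid B (log2 ratio of -2.14 ± 0.75 (SE), edgeR adjusted p = 0.099). Its call was lost without hybrid A (adjusted p = 0.30), hybrid B (0.37) or pool B (0.21) and with the replicate block (0.26). SUT746, divergent to the chaperone gene SSB2, had 40 and 183 in hybrid A and 88 and 507 in hybrid B (log2 ratio of -2.36 ± 0.72 (SE), edgeR adjusted p = 0.057, and 0.38 without hybrid B and 0.20 with the replicate block, both above the threshold of 0.2). None of the 29 members in these lists changed between hybrid and pool past the edgeR test, against 1.13% of all transcripts. With so low a background share, a count of 0 cannot tell whether they differ from it. DESeq2 called SUT448 at RPS6B, SUT835 at CLB5 and SUT107 near HXK1 higher in the pools. Their log2 changes were 3.96, 3.98 and 3.71 (DESeq2 adjusted p = 0.063, 0.083 and 0.13), and DESeq2 called 3.89% of all transcripts.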

How the data were processed

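The authors mapped read pairs jointly to S96 (S288c R64) and SK1 with GSNAP 2013-06-27, allowing 4 mismatches, and counted pairs matching a single genome inside annotated transcripts extended by 50 bp with HTSeq 0.5.4p5 (versions from the submitters' processing notes). They deposited raw counts per transcript, allele and lane, and DNA counts per SNP and allele. Lanes were summed to 4 libraries and 5 summary lines left out. The files do not name the DNA columns. The second was taken as SK1 from its relation to the RNA ratio (Spearman's rho of 0.32 over 6272 transcripts), so a direction of allele frequency is not an independent result. Frequencies of pool A, smoothed over 28000 bp, corrected both pools, and an equal share was used for the hybrids, in which DNA showed 48.1% for the second column. Pool B had 10355 SNPs with reads. SK1 transcript lengths were not used here.

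Cis, local trans, pool ratio and total effects were fitted with edgeR 4.0.16 (quasi-likelihood, TMM size factors 0.886, 0.945, 1.18 and 1.01, Benjamini-Hochberg over 6705 transcripts) in R 4.3.3 after tests on simulated data. Standard errors are the fitted change divided by the root of F. Counts at 0 make large fitted ratios depend on the prior count. Intervals are exact binomial. P-values with 2 replicates per group measure the spread between these cultures. Named members were the 5 with the highest level, the 6 largest called cis effects in each direction where all libraries pointed the same way, with a mean of 20 pairs or more per column, up to 8 called total changes with at least 50 counts and no overlap, and SUT643, with list members as examples. Counts of 5 or fewer and other single members were named after their values were seen. Members and lists were chosen with earlier results of these data known. Alternatives were DESeq2 1.42.0, RLE factors, other filters, thresholds, frequencies and replicate terms.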

Additional observations from a re-analysis of the deposited data

Results flagged for a closer look

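SUT004, downstream of the oxysterol-binding protein gene SWH1 on chromosome I, entered no test because all of its 3977 pairs were of S96, 809 in hybrid A, 620 in hybrid B, 1661 in pool A and 887 in pool B. Over the hybrids the S96 level was at least 476-fold higher, with 3 pairs taken as the most that a count of 0 allows over the group. SUT846, among the members at the right end of chromosome XVI, likewise had 737 pairs, 221, 178, 157 and 181 in the same order, all of S96. Neither holds a listed SNP, and whether SK1 has a copy of either cannot be told from the counts and was not tested. With at least 100 pairs each, these were the members with a clear signal outside the tests.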

How the results depend on the processing

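The main counts of called members were 38 for cis effects, 29 for pool ratios, 0 for local trans effects and 3 for total changes. At a false discovery rate under 0.05 they were 16, 11, 0 and 0. DESeq2 gave 55, 56, 0 and 11 calls (10 of the 11 total changes higher in the pools), where over all 6705 transcripts it gave 989, 882, 56 and 261 and edgeR 775, 689, 10 and 76. With the DNA of each pool used for itself, 25 cis effects were called. Total changes fell to 1 without a minimum mean count, and to 1 with total counted pairs as size factor, an alternative added after seeing the data. The shares over all transcripts in these fits were 0.962% and 0.880%. Leaving out one replicate gave 25 to 37 cis effects, 11 to 43 pool ratios, 0 to 1 local trans effects and 0 to 27 total changes. The members with a called cis effect without a hybrid were only in part those of the main fit. The labels do not say whether libraries with the same letter shared a batch. Differences between A and B in hybrids and pools had a correlation of 0.02 over 6705 transcripts for levels and 0.01 over 6324 for ratios. Pairs outside the annotation were 35.8% and 36.4% of allele-specific pairs in the A libraries and 28.4% and 26.8% in the B libraries. A batch shared by letter was not tested. With the replicate block 27 cis effects, 28 pool ratios, 0 local trans effects and 4 total changes were called. By the 5′ end 201 members in place of 125 were divergent. RLE factors, no minimum fold, chromosomes III or XI left out (XI added later), members with a listed SNP (added later), a minimum mean count of 50, and members with no close coding transcript on the other strand kept all counts within 1.5 times. No called cis effect or total change of a member reversed under any alternative fit. Without hybrid B the log2 changes of SUT307, SUT305 and SUT421 were 1.98, 1.54 and 1.15, and their calls were lost. The tested members had a median of 121 pairs per allele and library, against 1570 in coding transcripts.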
